A study of Rattus norvegicus with 21 samples.

Results

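The genes described here are the enzymes, regulators and carriers with which a cell makes sterols and fatty acids. They were taken as a list of 35 named genes, 23 of the sterol branch and 12 of the fatty acid branch. On the array, 34 of them were measured, 22 sterol and 12 fatty acid genes, out of 14217 genes read through 1 probe set each. Of the probe sets annotated with a single gene symbol, the one of highest mean level over the 21 arrays stood for the gene. Hmgcs1 was not analysed here.

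The study profiled rat astrocytes on expression arrays and set freshly isolated cells beside cultures grown with or without serum. All came from Sprague Dawley forebrain, in 7 groups of 3 arrays that the labels call biological replicates. Fresh P1 and fresh P7 cells were isolated at postnatal day 1 or postnatal day 7 by immunopanning, in which an antibody on a dish, here against the integrin ITGB5, holds the cells that carry it. HBEGF P1 and HBEGF P7 cultures were such panned cells after 7 days without serum in HBEGF, a growth factor of the EGF family, at 5 ng/ml. Serum P7 cultures were panned P7 cells given 10% foetal calf serum for the same 7 days. Withdrawn P7 cultures had the same 7 days of serum, were washed, and then had another 7 days with HBEGF. MD cultures were prepared without panning, with the classical McCarthy and de Vellis procedure on P1 forebrain, in 10% foetal calf serum for 7 days. Serum P7 and MD cultures therefore differed in age and in preparation at once. One label of the HBEGF P7 cultures, under characteristics, gives their age as p1, against P7 in title and source name. They were treated as P7.

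Cholesterol synthesis starts from acetyl-CoA, runs through mevalonate, isoprenoid diphosphates and squalene to lanosterol, and ends after a series of reductions, demethylations and double bond shifts. Its genes are switched on together by the SREBP transcription factors, which SCAP escorts out of the endoplasmic reticulum when membranes are poor in sterol and which INSIG proteins hold back when sterol is plentiful. The same family of factors also drives fatty acid synthesis, which shares the acetyl-CoA supply. Astrocytes are known as a main source of cholesterol and lipoproteins for other cells of the brain.

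Every level given here is the log2 of a deposited intensity, whose medians per array lay between 128 and 146. Arrays of 1 group had Spearman correlations between 0.963 and 0.994 over all probe sets, with the lowest in HBEGF P7 cultures. The list of 12 astrocyte markers had mean levels between 10.89 and 13.08 in the 21 arrays, against a median of 7.11 over all values. Within that list Slc1a2, a glutamate transporter, lay below that median in MD cultures (6.74), HBEGF P1 cultures (6.82), HBEGF P7 cultures (7.07) and withdrawn P7 cultures (6.14). Gjb6, a gap junction protein, did so in MD cultures (4.39), fresh P1 cells (6.45) and, as a mean of widely spread arrays (SD 4.0), in serum P7 cultures (6.66). A list of fibroblast and meningeal markers had means of 12.75 to 13.24 in withdrawn P7 cultures, above the astrocyte list there (12.25 to 12.58). In serum P7 cultures the lists had 11.27 to 13.24 and 11.84 to 12.12, and in HBEGF P7 cultures 9.43 to 11.83 and 11.82 to 12.52. In the other groups the fibroblast and meningeal list lay below the astrocyte list. A change was called, and is described as a rise or a fall, where limma gave an adjusted p under 0.05 (Benjamini-Hochberg over all 31042 probe sets of a comparison) and the log2 change was 1 or more in size. The p-values measure the spread between these arrays, and an exact permutation test of 3 against 3 arrays cannot go below 0.1. In such bulk RNA, fewer cells of a type and less RNA per cell cannot be told apart.

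Fresh cells had the highest sterol gene levels and MD cultures the lowest. With each gene centred on its own mean over the 21 arrays, the mean of the 22 sterol genes lay between 0.51 and 0.70 in fresh P1 cells and between 0.90 and 1.02 in fresh P7 cells. It was near 0 in the HBEGF P1 cultures (-0.14 to -0.05), the HBEGF P7 cultures (-0.21 to 0.22) and the serum P7 cultures (-0.05 to 0.10). Withdrawn P7 cultures lay lower, between -0.58 and -0.46, and MD cultures lowest, between -1.02 and -0.88. The 12 fatty acid genes took another order. Their mean lay between 0.69 and 0.78 in fresh P7 cells and between 0.52 and 0.66 in serum P7 cultures, but only between -0.02 and 0.02 in fresh P1 cells. In MD cultures it lay between -0.99 and -0.87, below all other arrays. These means describe the list and carry no test.

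**Figure D1:**
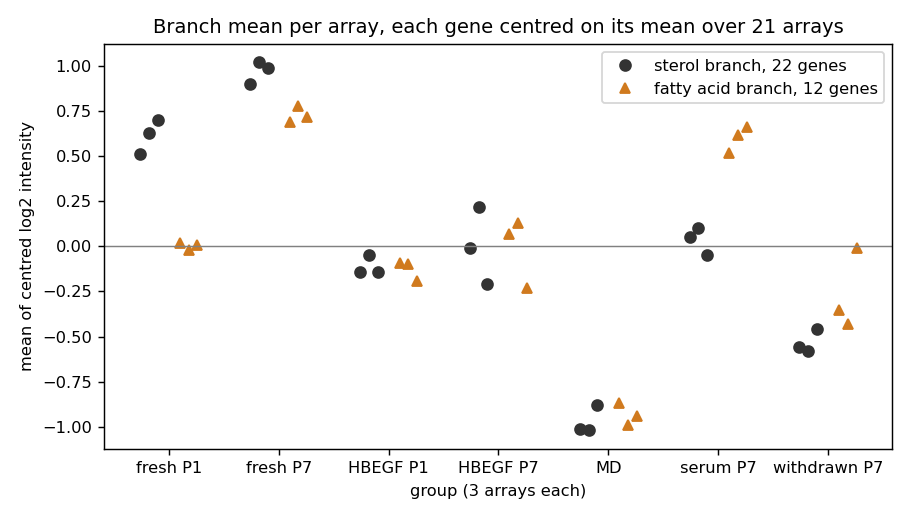
Each point is 1 array, and the vertical axis gives the mean of log2 intensities after each gene was centred on its own mean over 21 arrays, for 22 sterol genes (circles) and 12 fatty acid genes (triangles), with the 7 groups along the horizontal axis. Sterol means fall from 0.90 to 1.02 in fresh P7 cells to -1.02 to -0.88 in MD cultures, and fatty acid means of serum P7 cultures (0.52 to 0.66) lie apart from those of MD cultures (-0.99 to -0.87).

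Most sterol genes shared this order. Over the 21 arrays, which fall into 7 groups and share the authors' normalization, Dhcr7 had a Pearson correlation of 0.98 with the mean of the other sterol genes, Insig1 and Sqle 0.97 and Sc5d 0.96. Ebp ran the other way with -0.56, and Scap (0.15), Pmvk (0.35) and Srebf1 (0.39) followed the branch little. Among the fatty acid genes, Elovl6 (0.93), Acly (0.92) and Fasn (0.88) tracked the sterol mean, whereas Thrsp (-0.05) and Me1 (-0.02) did not. These values describe the arrays, which are not independent points within a group.

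**Figure D2:**
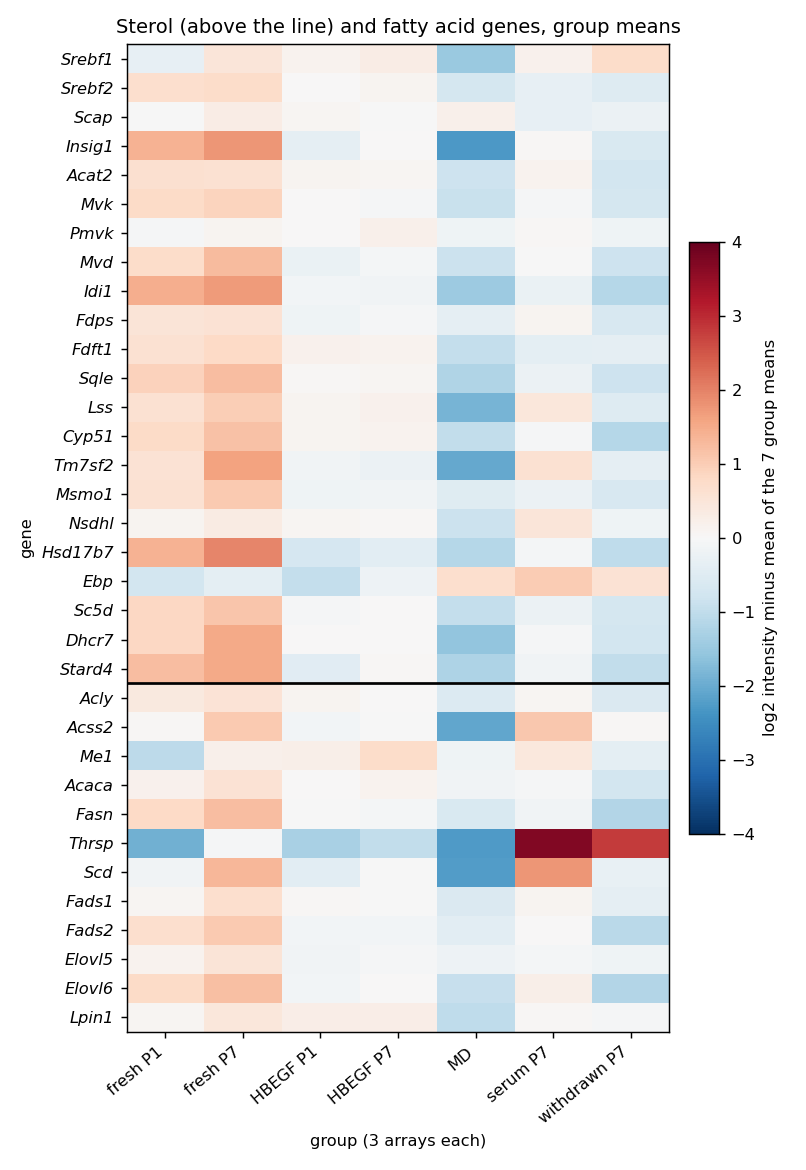
Rows are the 34 measured genes, sterol genes above the black line and fatty acid genes below it, and columns are the 7 groups of 3 arrays. Colour gives the group mean of log2 intensity minus the mean of the 7 group means, red for higher and blue for lower. Insig1 is bluest in MD cultures (mean 9.51 against 13.19 in fresh P1 cells), Ebp is red in the columns of cells that had been in serum, and Thrsp is red in serum and withdrawn P7 cultures only.

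At promoters, SREBP is known to work beside the CCAAT-binding factor NF-Y and the GC-box factor Sp1, so the CCAAT box was looked for in the RefSeq promoter window (GRCr8, 250 bases before to 50 after the annotated start). A window was at hand for 27 of the 34 measured genes. CCAAT, read on both strands, was present for 14 of 18 sterol genes and 6 of 9 fatty acid genes, against 39.6% of 27457 genes with a window and 38.6% of the 11733 measured on the array. GGGCGG, the core of the GC box, was present for 16 of 18 and 6 of 9, against 36% and 58.6%. Of the sterol regulatory element patterns, TCACNCCA was found for Srebf2 and Msmo1 (2 of 18 sterol and 0 of 9 fatty acid genes, against 4.3% and 3.9%). TCACNTGA, also read on both strands, was found in none of these windows, against 4.3% and 4.3%. The closing CCA of TCACNCCA can also open a CCAAT. A match is a run of letters and not a measured site.

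The following stretches are the 250 bases before the start of the 5 sterol genes with a window that fell most in MD cultures against fresh P1 cells (Insig1, Idi1, Tm7sf2, Hsd17b7 and Lss), of Ebp, the 1 gene called higher in that comparison, and of Thrsp, which rose most from HBEGF P7 to serum P7 cultures. They were picked by these changes and not by motif, and 1 CCAAT box or more stands in each of the 7. Among the sterol genes with a window, Scap, Acat2, Cyp51 and Dhcr7 had none, and of these only Scap was not called lower in that comparison. Capitals mark ATTGG, the CCAAT box on the other strand. The windows lie at chr4:8057770-8058019 (Insig1), chr17:66547525-66547774 (Idi1), chr1:212789542-212789791 (Tm7sf2), chr13:84722755-84723004 (Hsd17b7), chr20:12118231-12118480 (Lss) and chr1:161138965-161139214 (Thrsp), all on the minus strand, and at chrX:16971212-16971461 (Ebp) on the plus strand of GRCr8.
Insig1: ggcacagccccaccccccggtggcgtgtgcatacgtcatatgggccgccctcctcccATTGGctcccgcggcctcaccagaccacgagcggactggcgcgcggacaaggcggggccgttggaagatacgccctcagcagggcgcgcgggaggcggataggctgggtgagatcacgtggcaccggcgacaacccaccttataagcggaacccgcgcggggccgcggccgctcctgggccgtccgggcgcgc
Idi1: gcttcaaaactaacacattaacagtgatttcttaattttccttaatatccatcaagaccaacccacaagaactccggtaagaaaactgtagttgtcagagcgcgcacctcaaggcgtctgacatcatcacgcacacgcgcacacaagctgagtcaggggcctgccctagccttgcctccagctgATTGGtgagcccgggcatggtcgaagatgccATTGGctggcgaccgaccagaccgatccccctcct
Tm7sf2: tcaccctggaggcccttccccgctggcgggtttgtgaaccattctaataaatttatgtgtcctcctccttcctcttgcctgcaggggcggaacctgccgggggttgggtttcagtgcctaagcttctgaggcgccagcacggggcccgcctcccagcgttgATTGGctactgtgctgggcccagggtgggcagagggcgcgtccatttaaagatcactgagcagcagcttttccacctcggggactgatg
Hsd17b7: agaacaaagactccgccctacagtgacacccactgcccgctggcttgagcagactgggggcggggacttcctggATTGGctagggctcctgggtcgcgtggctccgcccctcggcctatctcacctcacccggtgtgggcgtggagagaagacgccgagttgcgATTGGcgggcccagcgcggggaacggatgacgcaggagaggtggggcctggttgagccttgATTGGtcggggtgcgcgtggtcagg
Lss: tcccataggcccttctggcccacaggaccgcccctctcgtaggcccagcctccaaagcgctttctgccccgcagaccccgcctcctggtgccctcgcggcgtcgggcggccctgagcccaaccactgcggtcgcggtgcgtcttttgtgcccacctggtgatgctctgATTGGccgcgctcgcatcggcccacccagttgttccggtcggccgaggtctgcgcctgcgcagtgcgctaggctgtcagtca
Ebp: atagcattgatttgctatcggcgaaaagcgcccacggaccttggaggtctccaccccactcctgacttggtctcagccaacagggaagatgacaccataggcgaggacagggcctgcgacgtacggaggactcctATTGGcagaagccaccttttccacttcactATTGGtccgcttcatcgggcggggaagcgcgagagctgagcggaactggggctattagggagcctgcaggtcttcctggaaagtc
Thrsp: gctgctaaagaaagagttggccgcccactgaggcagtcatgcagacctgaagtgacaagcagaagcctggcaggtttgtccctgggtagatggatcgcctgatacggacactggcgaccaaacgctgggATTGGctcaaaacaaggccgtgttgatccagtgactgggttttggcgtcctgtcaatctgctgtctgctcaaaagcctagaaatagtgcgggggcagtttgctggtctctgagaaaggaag
Insig1, Lss and Thrsp hold 1 box in this stretch, Idi1 and Ebp 2 and Hsd17b7 3. Tm7sf2 holds 1 here and another after its start.

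The control genes of the branch did not move alike. Insig1 encodes the protein that holds the SREBP and SCAP pair in the endoplasmic reticulum, and it is itself a classic SREBP target. Insig1 had log2 intensities of 13.20, 13.21 and 13.18 in fresh P1 cells and 13.51, 13.51 and 13.69 in fresh P7 cells. In HBEGF cultures, Insig1 was at 11.37, 11.76 and 11.15 for P1 cells and 11.81, 12.45 and 11.20 for P7 cells. Insig1 in cultures exposed to serum was at 9.49, 9.64 and 9.41 in MD cultures, 11.84, 11.86 and 11.86 in serum P7 cultures and 11.09, 10.94 and 11.55 in withdrawn P7 cultures. All 6 fresh arrays lay above every culture array, and the 3 MD arrays lay below all 18 others. The serum P7 arrays sat inside the range of the HBEGF P7 arrays, which were the most spread. Srebf2 encodes the SREBP form that mainly drives cholesterol genes. Fresh cells gave Srebf2 log2 intensities of 10.81, 11.06 and 10.92 at P1 and 10.91, 11.05 and 11.01 at P7. HBEGF cultures gave Srebf2 values of 10.08, 10.49 and 10.19 at P1 and 10.15, 10.96 and 10.01 at P7. For Srebf2, the MD cultures read 9.52, 9.68 and 9.41, the serum P7 cultures 10.13, 9.94 and 9.70 and the withdrawn P7 cultures 9.76, 9.93 and 9.50. Fresh arrays were high, MD arrays low, and MD and withdrawn arrays overlapped. A second Srebf2 probe set, of much lower signal, was not called in any comparison. Srebf1 encodes the forms that mainly drive fatty acid genes. Srebf1 had log2 intensities of 10.94, 11.12 and 11.36 in fresh P1 cells and 12.03, 11.94 and 11.89 in fresh P7 cells. In HBEGF cultures, Srebf1 was at 11.47, 11.65 and 11.72 for P1 cells and 11.77, 11.63 and 11.90 for P7 cells. Srebf1 in cultures exposed to serum was at 9.47, 10.37 and 10.11 in MD cultures, 11.70, 11.64 and 11.58 in serum P7 cultures and 12.31, 12.33 and 11.95 in withdrawn P7 cultures. MD arrays again lay below all others. The next lowest were the fresh P1 arrays and not another culture, and the withdrawn P7 arrays were among the highest, overlapping only the fresh P7 arrays. Scap encodes the escort protein. Fresh cells gave Scap log2 intensities of 10.62, 10.87 and 10.83 at P1 and 11.09, 11.09 and 11.05 at P7. HBEGF cultures gave Scap values of 10.98, 10.79 and 10.86 at P1 and 10.78, 10.85 and 10.75 at P7. For Scap, the MD cultures read 10.97, 11.04 and 11.02, the serum P7 cultures 10.54, 10.44 and 10.42 and the withdrawn P7 cultures 10.51, 10.75 and 10.42. All its arrays fell within a narrow band and no comparison called it with this probe set.

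On the mevalonate part of the route, Idi1 interconverts the isoprenoid building blocks isopentenyl and dimethylallyl diphosphate. Idi1 had log2 intensities of 14.05, 13.89 and 14 in fresh P1 cells and 14.26, 14.18 and 14.25 in fresh P7 cells. In HBEGF cultures, Idi1 was at 12.56, 12.33 and 12.41 for P1 cells and 12.62, 12.31 and 12.23 for P7 cells. Idi1 in cultures exposed to serum was at 11.67, 10.63 and 10.95 in MD cultures, 12.29, 12.44 and 12.12 in serum P7 cultures and 11.37, 11.29 and 11.52 in withdrawn P7 cultures. Fresh arrays stood above all cultures, HBEGF and serum P7 arrays overlapped, and withdrawn P7 and MD arrays were lowest. The first MD array lay above the withdrawn arrays and the other MD arrays below them. Acat2, which joins acetyl-CoA units at the start of the route, had group means from 10.63 to 12.08. Mvk, the kinase that first phosphorylates mevalonate, ranged from 8.98 to 10.77, and Mvd, the decarboxylase that makes isopentenyl diphosphate, from 8.88 to 11. Both had their highest mean in fresh P7 cells and were called lower in MD cultures than in fresh P1 cells. Pmvk, the kinase between them, had group means from 10.02 to 10.38 and was called in none of the 10 pairwise comparisons. Fdps, which makes farnesyl diphosphate, ranged from 11.97 to 13.21 and was called in none either, although its change from fresh P1 cells to MD cultures was -0.86 with an adjusted p of 0.000121.

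Squalene is made by Fdft1, oxidised by Sqle and closed to lanosterol by Lss. Sqle is a second rate-setting step of the pathway. Fresh cells gave Sqle log2 intensities of 12.42, 12.69 and 12.66 at P1 and 12.69, 13.05 and 12.94 at P7. HBEGF cultures gave Sqle values of 11.58, 11.95 and 11.66 at P1 and 11.59, 11.98 and 11.73 at P7. For Sqle, the MD cultures read 10.13, 10.64 and 10.64, the serum P7 cultures 11.52, 11.42 and 11.42 and the withdrawn P7 cultures 10.90, 10.86 and 10.74. The order was fresh, HBEGF, serum, withdrawn, MD, and none of these 5 sets of arrays overlapped another. Lss, the cyclase, differed from Sqle in serum. Lss had log2 intensities of 11.72, 11.73 and 11.57 in fresh P1 cells and 11.94, 12.20 and 11.99 in fresh P7 cells. In HBEGF cultures, Lss was at 10.97, 11.43 and 11.13 for P1 cells and 11.21, 11.82 and 10.72 for P7 cells. Lss in cultures exposed to serum was at 9.03, 9.18 and 9.43 in MD cultures, 11.61, 11.61 and 11.36 in serum P7 cultures and 10.50, 10.48 and 10.66 in withdrawn P7 cultures. MD arrays were far below all others, whereas serum P7 arrays overlapped the fresh P1 arrays. The second HBEGF P7 array lay above all 3 fresh P1 arrays. Fdft1 had group means from 9.52 to 11.26, lowest in MD cultures.

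Lanosterol is turned into cholesterol by a chain of reductases, demethylases and isomerases. Cyp51 is the cytochrome that removes a methyl group from lanosterol. Fresh cells gave Cyp51 log2 intensities of 13.38, 13.42 and 13.37 at P1 and 13.76, 13.96 and 13.72 at P7. HBEGF cultures gave Cyp51 values of 12.83, 12.71 and 12.72 at P1 and 12.69, 13.12 and 12.55 at P7. For Cyp51, the MD cultures read 11.47, 11.67 and 11.86, the serum P7 cultures 12.67, 12.74 and 12.33 and the withdrawn P7 cultures 11.54, 11.18 and 11.76. MD and withdrawn P7 arrays overlapped and lay below all others. Tm7sf2 is a sterol ring reductase that acts next. Tm7sf2 had log2 intensities of 10.51, 10.49 and 10.65 in fresh P1 cells and 11.57, 11.61 and 11.60 in fresh P7 cells. In HBEGF cultures, Tm7sf2 was at 10.06, 9.62 and 9.87 for P1 cells and 10.26, 9.17 and 9.79 for P7 cells. Tm7sf2 in cultures exposed to serum was at 8.24, 7.58 and 8 in MD cultures, 10.53, 10.60 and 10.66 in serum P7 cultures and 9.72, 9.68 and 9.47 in withdrawn P7 cultures. Fresh P7 arrays stood alone at the top and MD arrays alone at the bottom, and serum P7 arrays overlapped the fresh P1 arrays. Hsd17b7 is the keto reductase of the demethylation complex. Fresh cells gave Hsd17b7 log2 intensities of 11.37, 10.93 and 10.78 at P1 and 11.61, 11.45 and 11.69 at P7. HBEGF cultures gave Hsd17b7 values of 9.21, 9.11 and 8.60 at P1 and 9.44, 9.78 and 8.37 at P7. For Hsd17b7, the MD cultures read 9.14, 8.09 and 8.24, the serum P7 cultures 9.53, 9.45 and 9.69 and the withdrawn P7 cultures 8.33, 8.34 and 9.15. Every fresh array lay above every culture array, with HBEGF P7 arrays overlapping the arrays of every other culture and serum P7 arrays overlapping those of HBEGF P7 alone.

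Dhcr7 is the reductase of the last step to cholesterol. Dhcr7 had log2 intensities of 12.14, 12.22 and 12.18 in fresh P1 cells and 12.91, 12.86 and 12.86 in fresh P7 cells. In HBEGF cultures, Dhcr7 was at 11.41, 11.47 and 11.25 for P1 cells and 11.44, 11.44 and 11.25 for P7 cells. Dhcr7 in cultures exposed to serum was at 9.64, 9.98 and 9.72 in MD cultures, 11.49, 11.18 and 11.29 in serum P7 cultures and 10.67, 10.66 and 10.59 in withdrawn P7 cultures. Arrays of a group lay close together, and fresh P7, fresh P1, HBEGF, withdrawn P7 and MD arrays formed 5 steps without overlap, with the serum P7 arrays inside the range of the HBEGF steps or just beside it. Ebp is the isomerase that shifts the ring double bond. Fresh cells gave Ebp log2 intensities of 7.78, 7.26 and 7.96 at P1 and 8.20, 7.85 and 7.97 at P7. HBEGF cultures gave Ebp values of 7.68, 7 and 7.63 at P1 and 8.27, 8.03 and 8.31 at P7. For Ebp, the MD cultures read 9.40, 8.56 and 9.27, the serum P7 cultures 9.18, 9.53 and 9.55 and the withdrawn P7 cultures 8.74, 8.90 and 9.27. The 9 arrays of cells that were or had been in serum (MD, serum P7 and withdrawn P7) all lay above the 12 arrays of fresh cells and HBEGF cultures. Msmo1 and Nsdhl, partners in removing methyl groups, had group means from 12.15 to 13.84 and 9.80 to 11.13. Sc5d, a desaturase, ranged from 10.12 to 12.19.

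Stard4 is not an enzyme but a carrier that moves cholesterol between membranes. Stard4 had log2 intensities of 10.28, 10.03 and 9.98 in fresh P1 cells and 10.07, 10.44 and 10.70 in fresh P7 cells. In HBEGF cultures, Stard4 was at 8.45, 8.62 and 8.22 for P1 cells and 8.82, 9.77 and 8.20 for P7 cells. Stard4 in cultures exposed to serum was at 7.82, 7.52 and 7.61 in MD cultures, 8.59, 8.62 and 8.94 in serum P7 cultures and 7.67, 7.73 and 8.29 in withdrawn P7 cultures. Fresh arrays were highest, the second HBEGF P7 array came close to them, and MD and withdrawn P7 arrays overlapped at the bottom.

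**Figure D3:**
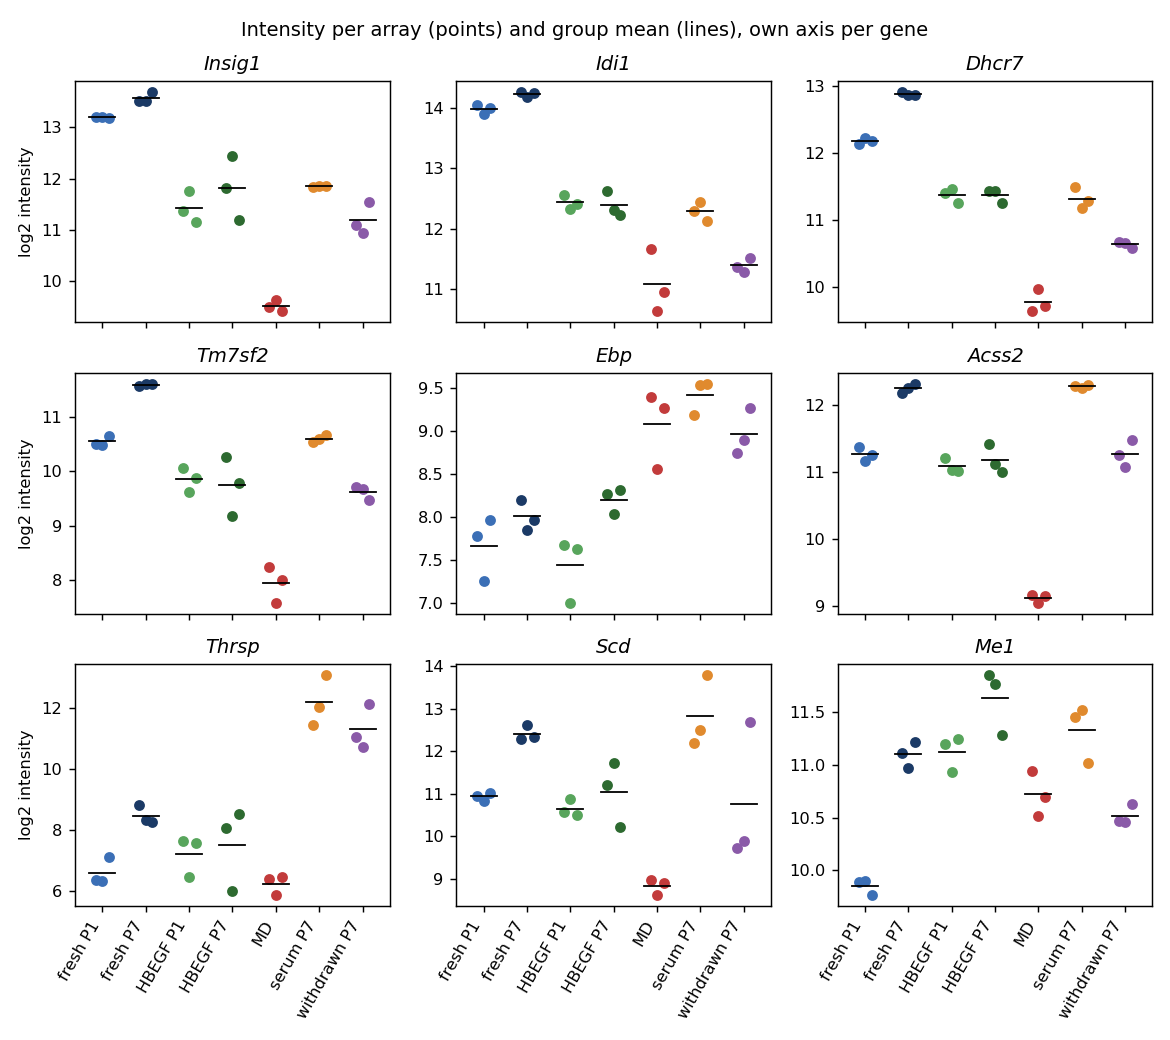
Each panel is 1 gene, with points for single arrays, a line for the group mean and log2 intensity on an axis of its own. Insig1, Idi1, Dhcr7 and Tm7sf2 are high in fresh cells and low in MD cultures, Ebp is high where serum had been present, Acss2 and Scd are high in fresh P7 cells and serum P7 cultures, Thrsp is at 10.72 or above in serum and withdrawn P7 cultures and at 8.81 or below elsewhere, and Me1 is lowest in fresh P1 cells.

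Acetyl-CoA and NADPH for fatty acids come from Acss2, Acly and Me1. Acss2 makes acetyl-CoA from acetate in the cytosol. Acss2 had log2 intensities of 11.38, 11.16 and 11.26 in fresh P1 cells and 12.18, 12.25 and 12.32 in fresh P7 cells. In HBEGF cultures, Acss2 was at 11.21, 11.04 and 11.02 for P1 cells and 11.42, 11.12 and 11.01 for P7 cells. Acss2 in cultures exposed to serum was at 9.17, 9.05 and 9.15 in MD cultures, 12.29, 12.26 and 12.30 in serum P7 cultures and 11.26, 11.08 and 11.48 in withdrawn P7 cultures. The MD arrays were far below the rest. Fresh P7 and serum P7 arrays overlapped at the top, and fresh P1, HBEGF and withdrawn P7 arrays overlapped in between. Me1, the malic enzyme, supplies NADPH. Fresh cells gave Me1 log2 intensities of 9.89, 9.90 and 9.77 at P1 and 11.11, 10.97 and 11.22 at P7. HBEGF cultures gave Me1 values of 11.20, 10.93 and 11.25 at P1 and 11.85, 11.77 and 11.28 at P7. For Me1, the MD cultures read 10.94, 10.52 and 10.70, the serum P7 cultures 11.45, 11.52 and 11.02 and the withdrawn P7 cultures 10.47, 10.46 and 10.63. The fresh P1 arrays lay below all others and the HBEGF P7 arrays included the highest. Acly, which makes acetyl-CoA from citrate, had group means from 11.53 to 12.67 and was not called in any pairwise comparison.

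The chain itself is built by Acaca, which makes malonyl-CoA, and Fasn, the fatty acid synthase. Fasn had log2 intensities of 12.78, 12.60 and 12.56 in fresh P1 cells and 12.92, 12.99 and 13.34 in fresh P7 cells. In HBEGF cultures, Fasn was at 11.91, 12.23 and 11.31 for P1 cells and 11.64, 12.52 and 11.18 for P7 cells. Fasn in cultures exposed to serum was at 11.45, 11.28 and 10.96 in MD cultures, 11.60, 11.77 and 11.72 in serum P7 cultures and 10.72, 10.48 and 10.80 in withdrawn P7 cultures. Fresh arrays were highest, withdrawn P7 arrays lowest, and the second HBEGF P7 array stood almost at the level of fresh P1 cells. Acaca had group means from 9.65 to 10.97 and was not called in any pairwise comparison. Thrsp encodes a small nuclear protein known to go with lipogenesis in liver and fat. Fresh cells gave Thrsp log2 intensities of 6.37, 6.31 and 7.11 at P1 and 8.81, 8.32 and 8.25 at P7. HBEGF cultures gave Thrsp values of 7.64, 6.46 and 7.56 at P1 and 8.05, 6 and 8.51 at P7. For Thrsp, the MD cultures read 6.38, 5.87 and 6.45, the serum P7 cultures 11.47, 12.06 and 13.09 and the withdrawn P7 cultures 11.07, 10.72 and 12.15. The 6 arrays of serum and withdrawn P7 cultures overlapped and lay above the 15 others. The other serum culture, MD, held the lowest array of all.

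Of the desaturases and elongases, Scd makes monounsaturated fatty acids. Scd had log2 intensities of 10.96, 10.83 and 11.03 in fresh P1 cells and 12.30, 12.61 and 12.33 in fresh P7 cells. In HBEGF cultures, Scd was at 10.58, 10.87 and 10.51 for P1 cells and 11.20, 11.72 and 10.22 for P7 cells. Scd in cultures exposed to serum was at 8.97, 8.63 and 8.90 in MD cultures, 12.20, 12.51 and 13.79 in serum P7 cultures and 9.72, 9.90 and 12.69 in withdrawn P7 cultures. Serum P7 and fresh P7 arrays overlapped at the top and MD arrays lay below all others. In the withdrawn group 2 arrays were low, and the third lay within the range of the serum P7 arrays. Elovl6 elongates saturated chains. Fresh cells gave Elovl6 log2 intensities of 11.36, 11.16 and 11.01 at P1 and 11.61, 11.75 and 11.48 at P7. HBEGF cultures gave Elovl6 values of 10.44, 10.24 and 10.25 at P1 and 10.51, 10.85 and 9.94 at P7. For Elovl6, the MD cultures read 9.83, 9.37 and 9.30, the serum P7 cultures 10.55, 10.70 and 10.72 and the withdrawn P7 cultures 9.24, 9.17 and 9.36. Fresh arrays were highest, withdrawn P7 and MD arrays lowest. Fads2, which starts polyunsaturated synthesis, was more spread within groups. Fads2 had log2 intensities of 9.95, 10.90 and 10.73 in fresh P1 cells and 10.47, 11.48 and 10.77 in fresh P7 cells. In HBEGF cultures, Fads2 was at 9.34, 10.01 and 9.86 for P1 cells and 9.20, 10.28 and 9.74 for P7 cells. Fads2 in cultures exposed to serum was at 8.86, 9.68 and 9.76 in MD cultures, 10.09, 10.20 and 9.28 in serum P7 cultures and 8.77, 8.96 and 8.57 in withdrawn P7 cultures. Withdrawn P7 arrays lay below all but 1 array, the first MD array. Lpin1, a phosphatidate phosphatase on the way to glycerolipids, was low in a single group. Fresh cells gave Lpin1 log2 intensities of 9.04, 8.75 and 8.48 at P1 and 9.14, 9.32 and 8.94 at P7. HBEGF cultures gave Lpin1 values of 8.89, 9.15 and 8.78 at P1 and 9.04, 9.18 and 8.61 at P7. For Lpin1, the MD cultures read 7.72, 7.73 and 7.58, the serum P7 cultures 8.86, 8.63 and 8.70 and the withdrawn P7 cultures 8.70, 8.56 and 8.61. The MD arrays lay below all 18 others. Fads1 and Elovl5, also in polyunsaturated synthesis, had group means from 12.08 to 13.32 and 12.93 to 13.64 and were not called in any pairwise comparison.

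Between the ages of the fresh cells few of the genes were called. Tm7sf2 rose by 1.04 (SE 0.21, adjusted p = 0.0104) from P1 to P7 and Me1 rose by 1.25 (SE 0.16, adjusted p = 0.00039). They were 1 of 22 sterol and 1 of 12 fatty acid genes, with 1.37% of all genes called higher and 0.183% lower, and no listed gene was called lower. Without the second fresh P1 array Tm7sf2 was no longer called, with a log2 change of 1.01 and an adjusted p of 0.05. Without the first fresh P1 or the first fresh P7 array, Acss2 was called too (1.04 and 1.02). Of the 34 changes 33 were positive, and their medians were 0.31 (sterol) and 0.43 (fatty acid) against -0.02 over all genes. Acss2 was at 0.98 (adjusted p = 0.000176) and Dhcr7 at 0.70 (adjusted p = 0.00137), both short of the fold limit. Scd, at 1.47, and Thrsp, at 1.86, had larger changes with adjusted p of 0.188 and 0.0817 and were not called. With the fresh groups fitted alone, both were called (adjusted p = 0.00594 and 0.0145). Of 12 microglia markers 2 rose and 0 fell (means of 5.91 to 6.25 at P1 and 6.64 to 7.53 at P7), and of 12 fibroblast and meningeal markers 1 rose and 0 fell (8.42 to 9.88 and 9.40 to 10.39). Of 12 astrocyte markers 3 rose and 0 fell (11.92 to 12.17 and 12.86 to 13.08), and of 12 neuron markers 0 rose and 1 fell (8.0 to 8.23 and 7.19 to 7.51). Their part in these changes was not tested.

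Growth in HBEGF was compared with the fresh cells of the same age. At P1, 4 of 22 sterol genes fell, with 4.49% of all genes called lower, and 1 of 12 fatty acid genes rose, with 4.38% called higher. Hsd17b7 fell by 2.06 (SE 0.33, adjusted p = 0.000252) and Insig1 fell by 1.76 (SE 0.23, adjusted p = 3.63e-05). Stard4 fell by 1.67 (SE 0.28, adjusted p = 0.000439) and Idi1 fell by 1.55 (SE 0.19, adjusted p = 1.75e-05). Me1 rose by 1.27 (SE 0.16, adjusted p = 2.61e-05). With the adjusted p alone, 14 sterol genes were lower, against 9.06% of all genes, among them Dhcr7 with a log2 change of -0.80 and Sqle with -0.86. The median change was -0.69 for sterol and -0.22 for fatty acid genes, against 0.03 over all genes. The mean of 6 oligodendrocyte progenitor markers, 3 of which rose, was 8.26 to 8.46 in fresh P1 cells and 9.43 to 9.82 in HBEGF P1 cultures. Of 11 oligodendrocyte markers 2 rose and 0 fell (6.11 to 6.31 and 6.54 to 7.22), and of 12 neuron markers 1 rose and 0 fell (8.0 to 8.23 and 8.63 to 8.9). Of 9 endothelial markers 0 rose and 2 fell (6.0 to 6.36 and 5.28 to 5.32), and of 12 astrocyte markers 3 rose and 3 fell (11.92 to 12.17 and 12.16 to 12.36). Their part was not tested.

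At P7, 11 of 22 sterol genes and 4 of 12 fatty acid genes fell in HBEGF culture and none of the 34 rose, with 5.51% of all genes called lower and 4.78% higher. Hsd17b7 fell by 2.39 (SE 0.33, adjusted p = 5.05e-05), Tm7sf2 fell by 1.86 (SE 0.21, adjusted p = 5.63e-06) and Idi1 fell by 1.85 (SE 0.19, adjusted p = 2.03e-06). Insig1 fell by 1.75, Dhcr7 fell by 1.5 and Stard4 fell by 1.47. Mvd, Msmo1, Sqle, Sc5d and Cyp51 had log2 changes of -1.33, -1.18, -1.13, -1.11 and -1.03. Among the fatty acid genes Fasn fell by 1.30 (SE 0.27, adjusted p = 0.00172), and Elovl6, Fads2 and Acss2 changed by -1.18, -1.17 and -1.07. The medians were -0.98 and -0.81, against 0.07 over all genes. Leaving out the third HBEGF P7 array ended the calls of Cyp51 (-0.91), Sc5d (-0.90), Acss2 (-0.98) and Elovl6 (-0.93) and left 2 fatty acid genes called. Without the second fresh P7 or the first HBEGF P7 array, Cyp51 (-0.96 and -0.98) and Fads2 (-0.88 and -0.90) lost theirs. With both groups fitted alone, Stard4 (adjusted p = 0.0568), Fasn (adjusted p = 0.052) and Fads2 (adjusted p = 0.0795) were not called. Of 12 astrocyte markers 4 fell and 0 rose (means of 12.86 to 13.08 in fresh P7 cells and 11.82 to 12.52 in HBEGF P7 cultures), and of 12 fibroblast and meningeal markers 3 rose and 0 fell (9.40 to 10.39 and 9.43 to 11.83). Of 12 neuron markers 3 rose and 0 fell (7.19 to 7.51 and 7.28 to 8.79). Their part was not tested.

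Whether culture changed the genes more at P7 than at P1 was tested as the difference between both changes. Limma called 0 of the 34 genes higher or lower, with 0.162% of all genes called higher and 0.654% lower. At an unadjusted p under 0.05, 7 of the 34 were lower and 0 higher. The share over all genes was not counted at that limit, so these numbers have no baseline. The difference was -1.15 for Tm7sf2 (95% interval -1.77 to -0.54, adjusted p = 0.0771) and -0.89 for Acss2 (95% interval -1.24 to -0.54, adjusted p = 0.0166). Insig1 had a difference of 0.02 with a 95% interval of -0.67 to 0.70. Of the 34 differences 28 were negative, with medians of -0.26 (sterol) and -0.42 (fatty acid) against 0.02 over all genes. With replicate numbers as a block, Tm7sf2 was called at -1.15 with an adjusted p of 0.0415. Without the first HBEGF P7 array, Tm7sf2 (-1.41) and Acss2 (-1.01) were called.

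The cultures of both ages did not differ by a call. Between HBEGF P7 and HBEGF P1 cultures limma called 0 of the 34 genes, with 0.753% of all genes called higher and 0.359% lower. At an unadjusted p under 0.05, 2 were higher and 0 lower, with no share over all genes counted at that limit. Ebp, at 0.77 (95% interval 0.27 to 1.27), and Me1, at 0.51 (95% interval 0.17 to 0.85), had the largest changes. Dhcr7 was at 0 with a 95% interval of -0.22 to 0.22. The medians were 0.06 and 0.10, against 0 over all genes.

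The MD method is a long-used way to obtain rat astrocytes, and its cultures were set against fresh P1 cells of the same age. There 17 of 22 sterol genes and 6 of 12 fatty acid genes fell and 1 rose, with 9.43% of all genes called lower and 10.1% higher. Insig1 fell by 3.68 (SE 0.23, adjusted p = 3.18e-09), which is a 12.8-fold lower intensity. Idi1 fell by 2.90 (SE 0.19, adjusted p = 4.68e-09), Tm7sf2 fell by 2.61 (SE 0.21, adjusted p = 4.61e-08) and Hsd17b7 fell by 2.54 (SE 0.33, adjusted p = 1.07e-05). Lss, Stard4, Dhcr7 and Sqle changed by -2.46, -2.45, -2.40 and -2.11. Smaller falls were those of Sc5d (-1.77), Cyp51 (-1.72), Mvk (-1.66), Mvd (-1.60), Fdft1 (-1.55), Acat2 (-1.45) and Msmo1 (-1.11). The regulators Srebf2 (-1.39) and Srebf1 (-1.16) fell too, and Scap was at 0.24 (adjusted p = 0.0654). Ebp rose by 1.41 (SE 0.24, adjusted p = 0.000145).

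In the fatty acid branch of the same comparison Acss2 fell by 2.14 (SE 0.12, adjusted p = 5.84e-10) and Scd fell by 2.11 (SE 0.58, adjusted p = 0.00814). Elovl6, Fasn, Fads2 and Lpin1 changed by -1.68, -1.42, -1.10 and -1.08. Me1 was at 0.87 (adjusted p = 0.000355), higher in all 3 MD arrays than in any fresh P1 array but below the fold limit. The medians were -1.63 (sterol) and -1.01 (fatty acid), against 0.11 over all genes. Without the first MD array, Srebf1 (-0.90), Msmo1 (-0.84) and Fads2 (-0.81) were no longer called. The same held for Msmo1 without the third fresh P1 array (-0.99), for Fads2 without the second (-0.91) or the third (-0.99) and for Lpin1 without the first (-0.94). With the mean over a gene's probe sets, Srebf2 (-0.72), Srebf1 (-0.81) and Mvk (-0.94) lost their calls. The mean of 12 astrocyte markers, 6 of which fell and 0 rose, was 10.89 to 11.07 in MD cultures and 11.92 to 12.17 in fresh P1 cells. The fibroblast and meningeal markers, 3 of 12 higher and 5 lower, had means of 7.78 to 8.20 and 8.42 to 9.88, and the neuron markers, 2 of 12 higher and 3 lower, 7.76 to 8.01 and 8.0 to 8.23. The progenitor markers, 0 of 6 higher and 2 lower, had means of 7.47 to 7.5 and 8.26 to 8.46. Their part in these changes was not tested.

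MD and HBEGF P1 cultures were both grown for 7 days from P1 forebrain and differed in medium and in preparation. MD cultures had serum and no HBEGF, and HBEGF P1 cultures had HBEGF and no serum, so serum, the absence of HBEGF and preparation cannot be told apart. In MD cultures 9 of 22 sterol genes fell and 1 rose, and 3 of 12 fatty acid genes fell, with 9.57% of all genes called lower and 8.81% higher. Lss fell by 1.96 (SE 0.20, adjusted p = 1.05e-06), Insig1 fell by 1.92 (SE 0.23, adjusted p = 5.7e-06) and Tm7sf2 fell by 1.91 (SE 0.21, adjusted p = 2.02e-06). Srebf1, Dhcr7, Idi1, Sqle, Fdft1 and Cyp51 changed by -1.63, -1.60, -1.35, -1.26, -1.13 and -1.09. Hsd17b7, at -0.48 (95% interval -1.18 to 0.21), was not called. Ebp rose by 1.64 (SE 0.24, adjusted p = 3.68e-05). Acss2 fell by 1.97 (SE 0.12, adjusted p = 3.23e-09), Scd fell by 1.82 (SE 0.58, adjusted p = 0.0206) and Lpin1 fell by 1.26 (SE 0.16, adjusted p = 1.04e-05). The medians were -0.92 and -0.65, against 0.09 over all genes.

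Without the first MD array, Fdft1 (-0.96) and Cyp51 (-0.99) were no longer called, and Cyp51 lost its call with the mean over its probe sets too (-0.77). Without the second MD array Scd stood at -1.72 (adjusted p = 0.0592), and without the second HBEGF P1 array at -1.71 (adjusted p = 0.0632). The fibroblast and meningeal markers, 7 of 12 lower and 2 higher, had means of 7.78 to 8.20 in MD and 9.59 to 10.02 in HBEGF P1 cultures, and the astrocyte markers, 4 of 12 lower and 0 higher, 10.89 to 11.07 and 12.16 to 12.36. The oligodendrocyte progenitor markers, 3 of 6 lower and 0 higher, had means of 7.47 to 7.5 and 9.43 to 9.82, and the neuron markers, 4 of 12 lower and 0 higher, 7.76 to 8.01 and 8.63 to 8.9. Their part was not tested.

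For panned P7 cells the labels give serum in place of HBEGF within 1 preparation, and here no sterol gene was called lower. Serum and the absence of HBEGF cannot be told apart in this comparison. Same-numbered serum P7 arrays deviated together with withdrawn P7 arrays (0.24 to 0.53) and not with HBEGF P7 arrays (-0.05 to 0.20). Any difference in handling between these sets of arrays was not tested and cannot be told apart here. Between serum P7 and HBEGF P7 cultures 1 of 22 sterol and 3 of 12 fatty acid genes rose and none fell, with 4.83% of all genes called higher and 4.47% lower. Thrsp rose by 4.69 (SE 0.56, adjusted p = 2.44e-05), Scd rose by 1.79 (SE 0.58, adjusted p = 0.0361) and Acss2 rose by 1.10 (SE 0.12, adjusted p = 8.1e-06). Ebp rose by 1.22 (SE 0.24, adjusted p = 0.00154). Insig1 was at 0.03 with a 95% interval of -0.45 to 0.51, Idi1 at -0.10 with -0.50 to 0.29 and Dhcr7 at -0.06 with -0.28 to 0.16. The medians were -0.08 (sterol) and 0.09 (fatty acid), against 0 over all genes. Limma gave 3 sterol genes lower at an unadjusted p under 0.05 and 0 fatty acid genes, with no share over all genes counted at that limit.

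Scd lost its call without the first (1.86, adjusted p = 0.0672) or the third (1.38) HBEGF P7 array and without the second (1.95, adjusted p = 0.0582) or the third (1.31) serum P7 array, and with both groups fitted alone (adjusted p = 0.0903). Thrsp kept its call without any 1 array and stood at 3.93 without the second HBEGF P7 array. Tm7sf2 was at 0.86 (adjusted p = 0.00704) and was called, at 1.12, without the first HBEGF P7 array. Fibroblast and meningeal markers, 6 of 12 higher and 0 lower, had means of 11.27 to 13.24 in serum P7 and 9.43 to 11.83 in HBEGF P7 cultures. The neuron markers, 0 of 12 higher and 4 lower, had means of 7.24 to 7.49 and 7.28 to 8.79. The means were 7.63 to 8.16 and 8.77 to 9.35 for 6 oligodendrocyte progenitor markers, and 8.13 to 8.15 and 7.08 to 7.38 for 8 mural markers. The means of the astrocyte, oligodendrocyte, microglia and endothelial markers overlapped between these groups. Their part was not tested.

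The difference between both changes from HBEGF to serum medium was tested directly, as serum P7 minus HBEGF P7 less MD minus HBEGF P1. It was positive and called for 7 of 22 sterol genes and 5 of 12 fatty acid genes and negative and called for none, with 5.02% of all genes called higher and 6.29% lower. The difference was 2.77 for Tm7sf2 (SE 0.29, adjusted p = 3e-05), 2.24 for Lss (SE 0.28, adjusted p = 0.000125) and 1.94 for Insig1 (SE 0.32, adjusted p = 0.000922). Dhcr7, Srebf1, Nsdhl and Idi1 followed with 1.54, 1.51, 1.38 and 1.24. In the fatty acid branch it was 5.67 for Thrsp (SE 0.79, adjusted p = 0.000245), 3.61 for Scd (SE 0.82, adjusted p = 0.00713) and 3.07 for Acss2 (SE 0.16, adjusted p = 1.09e-08). Lpin1 (1.05) and Elovl6 (1.03) were close to the fold limit. Ebp, which rose in both comparisons, had a difference of -0.43 with a 95% interval of -1.13 to 0.28.

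The medians of these differences were 0.86 (sterol) and 0.73 (fatty acid), against -0.05 over all genes. Without the second HBEGF P7 array 11 sterol genes were called, and without the third, 3 fatty acid genes, with Elovl6 at 0.79 and Lpin1 at 0.88. Elovl6 also lost its call without the second (0.97) or the third (0.93) MD or the first HBEGF P1 array (0.97), and Lpin1 without the second HBEGF P1 (0.94) or the first serum P7 array (0.98). Thrsp stood at 4.91 without the second HBEGF P7 array. Age at isolation and preparation differ together between both comparisons and cannot be told apart, nor can serum and the absence of HBEGF within each. Any difference in handling of the serum P7 arrays cannot be told apart either.

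**Figure D4:**
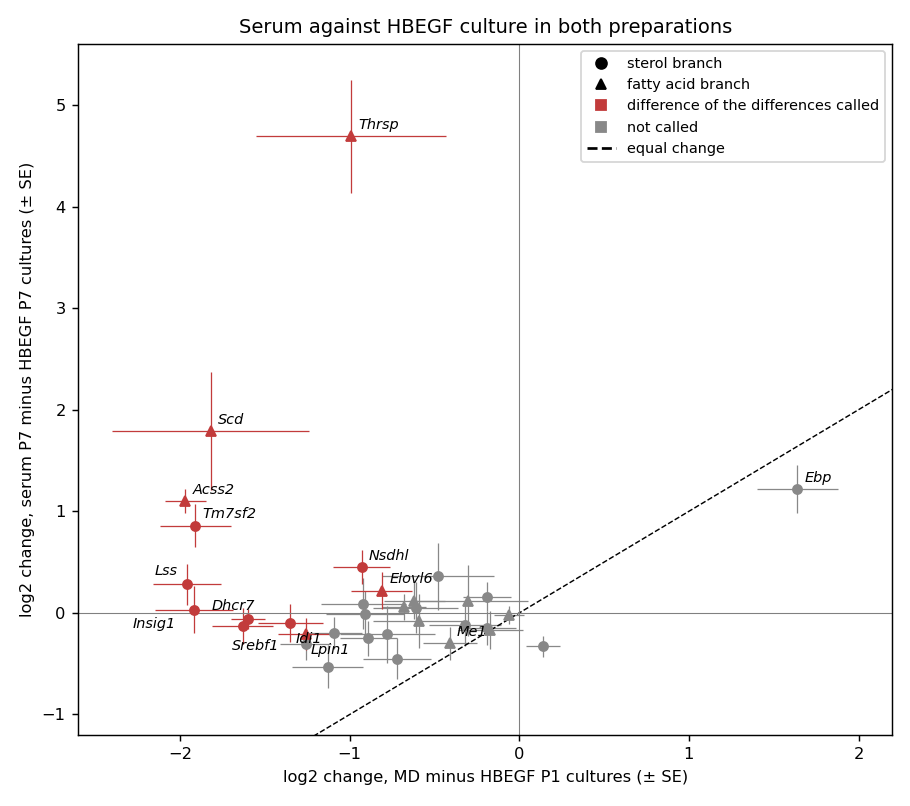
Each point is 1 of the 34 genes, with the log2 change from HBEGF P1 to MD cultures on the horizontal axis, that from HBEGF P7 to serum P7 cultures on the vertical axis, bars of 1 SE and a dashed line of equal change. Red marks the 12 genes whose difference between both changes was called, and all of them lie left of 0 on the horizontal axis (from -1.97 for Acss2 to -0.81 for Elovl6) and above the dashed line, whereas Ebp (1.64 and 1.22) is raised on both axes.

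Both serum cultures were also compared directly, where age, preparation and any difference in handling of the arrays cannot be told apart. From MD to serum P7 cultures 9 of 22 sterol and 5 of 12 fatty acid genes were higher and none lower, with 7.58% of all genes called higher and 6.37% lower. Tm7sf2 was higher by 2.66 (SE 0.21, adjusted p = 2.47e-07), Insig1 by 2.34 (SE 0.23, adjusted p = 1.96e-06) and Lss by 2.31 (SE 0.20, adjusted p = 6.6e-07). Srebf1, Dhcr7, Nsdhl, Idi1, Hsd17b7 and Stard4 followed with 1.66, 1.54, 1.33, 1.20, 1.07 and 1.07. Thrsp was higher by 5.97 (SE 0.56, adjusted p = 1.24e-06), Scd by 4 (SE 0.58, adjusted p = 7.62e-05) and Acss2 by 3.16 (SE 0.12, adjusted p = 2.31e-11). Elovl6 was higher by 1.16 and Lpin1 by 1.05. Scap had a log2 change of -0.55 with an adjusted p of 0.000506. The medians were 0.95 and 0.65, against -0.07 over all genes.

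Hsd17b7 lost this call without the second (0.87) or the third (0.94) MD or the first (1.08, adjusted p = 0.0507) or the third (1, adjusted p = 0.0731) serum P7 array, and Idi1 (0.97) without the second MD array. Stard4 (0.96) lost it without the third serum P7 array and with the mean over its probe sets (0.38), and Lpin1 (0.99) without the first serum P7 array. The fibroblast and meningeal markers, 10 of 12 higher in serum P7 cultures and 0 lower, had means of 11.27 to 13.24 there and 7.78 to 8.20 in MD cultures. The astrocyte markers, 5 of 12 higher and 0 lower, had means of 11.84 to 12.12 and 10.89 to 11.07. Their part was not tested.

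After the move from serum to HBEGF medium the genes were lower than in serum, mostly by less than the fold limit. Withdrawn P7 cultures had another 7 days in culture, so change of medium and time in culture cannot be told apart here. Withdrawn P7 against serum P7 cultures had 1 of 22 sterol and 4 of 12 fatty acid genes lower and none higher, with 2.26% of all genes called lower and 2.24% higher. Cyp51 fell by 1.09 (SE 0.16, adjusted p = 0.000805). Scd fell by 2.07 (SE 0.58, adjusted p = 0.0382), Elovl6 fell by 1.40 (SE 0.18, adjusted p = 0.000331), Fasn fell by 1.03 (SE 0.27, adjusted p = 0.0253) and Acss2 fell by 1.01 (SE 0.12, adjusted p = 9.45e-05). With the adjusted p alone 9 sterol and 7 fatty acid genes were lower, against 5.36% of all genes, among them Lss (-0.98), Tm7sf2 (-0.97) and Dhcr7 (-0.68). Of the 34 changes 31 were negative, with medians of -0.67 and -0.85 against 0.02 over all genes. Srebf1, at 0.55 (95% interval 0.18 to 0.93), was 1 of the 3 positive values. With replicate numbers as a block, shared by all 7 groups, Fads2 was also called (-1.09, adjusted p = 0.0132 against 0.0686). Same-numbered arrays of these cultures deviated together (0.24 to 0.53), but the titles do not state a pairing.

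Scd rested on few arrays: its groups overlapped, and it lost the call without any 1 of the first (-2.38), second (-2.23) or the third (-1.59) serum P7 or the first (-1.54) or second (-1.63) withdrawn P7 array, while without the third withdrawn P7 array it stood at -3.03. Fasn lost its call without the first (-1.08, adjusted p = 0.0635) or second (-0.99) serum P7 or the first (-1.06, adjusted p = 0.0663) or second (-0.94) withdrawn P7 array, Acss2 without the third serum P7 (-1) or second withdrawn P7 array (-0.91), and Cyp51 without the second withdrawn P7 array (-0.93). Without the third withdrawn P7 array 4 sterol genes were called (Cyp51, Hsd17b7, Lss and Acat2), 2 without the first or the third serum P7 or the first withdrawn P7 array, and between 1 and 2 fatty acid genes without the second withdrawn P7, the first withdrawn P7 or the first or second serum P7 array. The 12 microglia markers, 7 of them higher and 0 lower, had means of 7.46 to 8.75 in withdrawn P7 and 5.69 to 6.18 in serum P7 cultures, and their part was not tested.

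Withdrawn P7 cultures also had lower values than HBEGF P7 cultures, which had never been in serum. Earlier serum, the longer time in culture and any difference in handling of the arrays cannot be told apart in this comparison. There 2 of 22 sterol and 3 of 12 fatty acid genes fell and 1 fatty acid gene rose, with 5.42% of all genes called lower and 6.29% higher. Thrsp rose by 3.80 (SE 0.56, adjusted p = 0.000182). Cyp51 fell by 1.29 (SE 0.16, adjusted p = 5.26e-05), Stard4 fell by 1.03 (SE 0.28, adjusted p = 0.0141), Elovl6 fell by 1.17 (SE 0.18, adjusted p = 0.000306), Fasn fell by 1.12 (SE 0.27, adjusted p = 0.00607) and Me1 fell by 1.11 (SE 0.16, adjusted p = 0.000159). With the adjusted p alone 12 sterol genes were lower, against 16.2% of all genes, among them Idi1 (-1) and Sqle (-0.93), and 1, Ebp, was higher, against 13.7% (0.77, adjusted p = 0.0254). The medians were -0.64 and -0.47, against 0.01 over all genes. This comparison and that of serum P7 with HBEGF P7 cultures share the HBEGF P7 arrays.

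These counts leaned on single arrays. Without the second HBEGF P7 array Stard4 (-0.62), Fasn (-0.75) and Elovl6 (-0.96) were no longer called, and Stard4 also lost its call without the first (-0.92) or second (-0.95) withdrawn P7 array. The count of sterol genes was 1 without the first or second withdrawn P7 array, 5 without the third HBEGF P7 array and 3 without the first HBEGF P7 or the third withdrawn P7 array. The withdrawn and HBEGF P7 arrays of Stard4 overlapped. In the fatty acid branch 1 gene was called lower without the second HBEGF P7 array and 5 without the third withdrawn P7 array, with 1 called higher in each case. Thrsp stood at 3.04 without the second HBEGF P7 array. Fibroblast and meningeal markers, 8 of 12 higher and 0 lower, had means of 12.75 to 13.24 in withdrawn P7 and 9.43 to 11.83 in HBEGF P7 cultures, and 6 of 12 microglia markers were higher and 0 lower (7.46 to 8.75 and 5.6 to 7.69). Their part was not tested.

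Neighbouring pathways were read from lists of genes outside the 35. The 6 other measured sterol synthesis and uptake genes (Insig2, Mbtps1, Mbtps2, Npc2, Acat1 and Aacs) had 0 of 6 called in MD cultures against fresh P1 cells. At an unadjusted p under 0.05, limma gave 3 of them higher and 2 lower there, with no share over all genes counted at that limit. The median change of the 6 in that comparison was 0.08. Over all genes, here and for the lists that follow, 9.43% were called lower and 10.1% higher in that comparison (median 0.11), 9.57% and 8.81% in MD against HBEGF P1 cultures (median 0.09), and 6.37% and 7.58% in serum P7 against MD cultures (median -0.07). Against HBEGF P1 cultures 1 of the 6, Acat1, a mitochondrial thiolase, fell by 1.33 (SE 0.15, adjusted p = 2.98e-06). Leaving out the first fresh P1 array gave 1 lower call among the 6 in the first of these comparisons.

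Fatty acid oxidation genes, which break down what the fatty acid branch makes, were compared for MD cultures in the same way. Of 16 measured, 5 fell and 0 rose against fresh P1 cells, among them Acaa2 (-1.54), Eci1 (-1.43), Acadl (-1.26) and Hadh (-1.16), with a median of -0.56 over the 16 against 0.11 over all genes, of which 9.43% were called lower. Without the first MD array 3 remained called, as Hadh (-0.81) and Etfdh (-0.88) lost their calls. Against HBEGF P1 cultures again 5 of 16 fell and 0 rose, led by Acaa2 (-2.18) and Hadh (-1.68), with a median of -0.86 against 0.09 over all genes, of which 9.57% were called lower. Serum P7 cultures had 5 of 16 higher than MD cultures and 0 lower, led by Hadh (1.77) and Acadvl (1.67), with a median of 0.64 against -0.07 over all genes, of which 7.58% were called higher. Of these 5, Acaa2 lost its call without the third serum P7 array (1.16) and Eci1 without the second MD array (0.98).

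Genes of other fatty acid steps went both ways. Of 19 measured, 3 rose and 2 fell in MD cultures against fresh P1 cells, with a median of -0.07, beside 10.1% of all genes called higher and 9.43% lower (median 0.11): Fads3, a desaturase relative, rose by 3.52, Lpin3 rose by 1.36 and Elovl1 rose by 1.29, and Elovl2, an elongase of long polyunsaturated chains, fell by 3.19 and Gpam fell by 1.17. Elovl2 fell by 2.26 from HBEGF P1 to MD cultures and fell by 3.32 from HBEGF P7 to withdrawn P7 cultures. Among 15 genes of fatty acid binding, activation and storage, 4 rose and 2 fell in MD cultures against fresh P1 cells, with a median of -0.3. Plin3, a lipid droplet coat protein, rose by 3.22 (SE 0.31, adjusted p = 3.8e-07) and Acsl5, which activates fatty acids, rose by 2.82 (SE 0.21, adjusted p = 2.46e-08). Plin3 was also higher by 2.50 in serum P7 and by 2.83 in withdrawn P7 than in HBEGF P7 cultures.

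Genes of sterol efflux and oxysterol handling (13 measured) also split. In MD cultures against fresh P1 cells 2 rose and 4 fell, with a median of -0.21, where 10.1% of all genes were called higher and 9.43% lower (median 0.11). Soat1, which stores cholesterol as esters, rose by 1.53 (SE 0.17, adjusted p = 1.55e-06), and Mylip, a ubiquitin ligase induced by oxysterols, fell by 2.61 (SE 0.34, adjusted p = 1.24e-05). Abca1, a cholesterol exporter, fell by 1.09 but lost its call without the third MD array (-0.92). Against HBEGF P1 cultures Abca1 fell by 2.08 (SE 0.24, adjusted p = 4.18e-06). From MD to serum P7 cultures, where 7.58% of all genes were called higher and 6.37% lower (median -0.07), the median was 0.96. Of the 13, 6 were higher and 1, Apoe, was lower (-1.04), although without the first MD (-0.96) or the first serum P7 array (-0.92) Apoe fell short of the fold limit. Without the third serum P7 array 4 were higher, as Cyp27a1 (0.57) and Ch25h (1.37, adjusted p = 0.0727) lost their calls. Cyp27a1, at 1.25 with all arrays, also lost its call without any 1 of the MD arrays. Ch25h, which makes an oxysterol, rose by 3.44 from HBEGF P7 to withdrawn P7 cultures (SE 0.49, adjusted p = 0.000143).

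For 19 of the 34 genes the array carried more than 1 probe set, so the calls could be read again. Where a gene was called and another of its probe sets was tested, 49 of 69 values had the same call, 20 were not called and 0 had the opposite call. Thrsp rose by 4.13 and 4.23 on its other probe sets from HBEGF P7 to serum P7 cultures. Nsdhl, not called against fresh P1 cells in MD cultures (-0.96), was lower on its second probe set there (-1.60). Scap was lower on its second probe set in HBEGF culture at P1 (-1.57, adjusted p = 9.67e-06) and at P7 (-1.41, adjusted p = 2.24e-05), against 0.10 and -0.28 on the probe set used here. Stard4 was not called on its other probe sets from MD to serum P7 cultures (-0.08 and 0.17).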

How the data were processed

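The series holds 21 Affymetrix Rat Genome arrays, 3 for each of 7 groups, and the values are intensities that the authors deposited after RMA, as the submitters' processing notes say, and left on a linear scale, 1 per probe set. RMA already corrects background and equalises arrays, which can narrow global differences. Not given in the sources used here are its software, its version and the chip definition. Log2 was taken, and 1 linear model with 7 group means was fitted over 31042 probe sets with limma 3.58.1 in R 4.3.3, with 14 residual and 2.89 prior degrees of freedom. P-values were adjusted by Benjamini-Hochberg within each comparison. Differences between changes were tested as contrasts of the same model, which was tested on simulated data. Arrays have no counts, so precision rests on their number.

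The genes and lists were chosen with earlier results of these data known. Values in all arrays are given for genes called in 3 or more of 10 pairwise comparisons, for those with the largest changes of a branch, and for Srebf1, Srebf2, Scap and Insig1, with the others given by range. From other lists up to 4 called genes with the largest change are named. Probe sets were matched to genes through GEO's platform annotation, and promoters through RefSeq (GRCr8). Alternatives were a filter on dim probe sets, quantile normalization, log2 of the value plus 50, the mean over a gene's probe sets, the compared groups alone, an intensity trend with robust prior, the replicate number as a block and each array left out. Same-numbered arrays deviated together (all 3 correlations above 0.1) between fresh P1 cells and HBEGF P1 cultures (0.25 to 0.51), fresh P1 cells and MD cultures (0.23 to 0.39), MD and HBEGF P1 cultures (0.37 to 0.60), HBEGF P1 and P7 cultures (0.46 to 0.57), MD and HBEGF P7 cultures (0.15 to 0.38) and serum and withdrawn P7 cultures (0.24 to 0.53). No other pair of groups met this rule. Fresh P7 cells still had mean same-number correlations of 0.26 with MD, 0.24 with HBEGF P1 and 0.14 with HBEGF P7 cultures. Fresh P1 cells had 0.20 with fresh P7 cells and 0.18 with HBEGF P7 cultures. In the remaining pairs, each with serum or withdrawn P7 cultures, the means lay between -0.08 and 0.08. Whether serum and withdrawn P7 arrays were handled apart from the other groups was not tested. Comparisons across these sets cannot tell such a difference apart.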

Additional observations from a re-analysis of the deposited data

Results flagged for a closer look

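For 12 of the 34 genes the change from HBEGF to serum medium differed between the preparations. It was tested as serum P7 minus HBEGF P7 less MD minus HBEGF P1 with limma (adjusted p under 0.05 and a size of 1 or more, 3 arrays a group). All 12 differences were positive, and of all genes 5.02% were called higher and 6.29% lower by the same rule. In the sterol branch the difference was 2.77 for Tm7sf2, 2.24 for Lss, 1.94 for Insig1, 1.54 for Dhcr7, 1.51 for Srebf1, 1.38 for Nsdhl and 1.24 for Idi1. In the fatty acid branch it was 5.67 for Thrsp (4.91 without the second HBEGF P7 array), 3.61 for Scd, 3.07 for Acss2, 1.05 for Lpin1 and 1.03 for Elovl6. Lpin1 and Elovl6 each lost the call without some single arrays. Age at isolation differs along with preparation, so the parts of each cannot be told apart. Serum took the place of HBEGF in both changes, and its part and that of the absence of HBEGF cannot be told apart either. The same holds for any difference in handling of the serum P7 arrays.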

How the results depend on the processing

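No called gene value changed sign under any alternative run. Of 100 called values, 100 kept their call with the filter on dim probe sets, the intensity trend and the replicate block, 93 with quantile normalization, 92 with log2 of the value plus 50, 92 with the compared groups alone and 91 with the mean over probe sets. With 1 array left out, 617 of 672 values kept it, and 27 of the 100 called values lost their call without some 1 array. Calls of these genes were among those lost: Lpin1, Stard4, Fasn, Acss2, Elovl6 and Hsd17b7 with another scaling or offset, and Scd, Fasn, Stard4, Fads2 and Elovl6 with the compared groups alone.

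A few counts moved by more than 1.5 times. Genes higher in fresh P7 than fresh P1 cells numbered 2, and 4 with the compared groups alone (1 to 3 with 1 array left out). Genes lower in withdrawn than serum P7 cultures numbered 5, and 3 with quantile normalization (2 to 8). Genes lower in withdrawn than HBEGF P7 cultures numbered 5, and 3 with the mean over probe sets or the compared groups alone (3 to 9). For the difference of culture changes by age the count of lower genes was 0, and 1 with the replicate block (0 to 2). The cause was not tested. The replicate block also gave 3 genes for fresh P7 against fresh P1 cells, 6 for withdrawn against serum P7 cultures and 13 (12 without it) for the difference by preparation, and it ended no call.

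With 1 array left out, lower counts were 4 to 6 in HBEGF P1 cultures and 11 to 17 in HBEGF P7 cultures against fresh cells, and 21 to 24 (against fresh P1 cells) and 10 to 15 (against HBEGF P1 cultures) in MD cultures. Higher counts were 3 to 4 in serum P7 against HBEGF P7 cultures, 13 to 17 against MD cultures, and 10 to 16 for the difference by preparation. With 3 arrays a group, smaller changes and dim probe sets are poorly resolved.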
